A study of Homo sapiens with 24 samples.

Results

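The transcripts described here are antisense and divergent noncoding RNAs that were measured while human cells lost their mitochondrial DNA (mtDNA). The members were chosen by name and by level: a probe set (the group of short oligonucleotides that reads 1 transcript on the array) was taken when its single annotated gene symbol ended in -DT (divergent transcript) or in -AS and a number (antisense RNA), and when its mean log2 signal over the 18 HEK293 arrays was at least 5.84. OIP5-AS1, with 3 probe sets, was left out by the rule. This gave 353 probe sets of 281 genes, out of 1358 probe sets of 977 genes with such a name, and 54675 probe sets on the array, which name 19775 genes. Of the members, 91 probe sets (70 genes) carried a -DT name and 262 (211 genes) an -AS name. The measured mean level therefore selected the members, and no test was made on it. CCDC28A-AS1 (5.85), DLG5-AS1 (5.86) and FRMD6-AS1 (5.87) lay just inside the limit, while an ATP8B1-AS1 probe set (5.83), EPCIP-AS1 (5.83) and SYT15-AS1 (5.83) lay just outside it.

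Many mammalian promoters are transcribed in both directions, and the RNA made away from the gene is called divergent. Antisense RNAs start on the strand opposite to a gene and can overlap its body or its promoter. Such RNAs are often short-lived and scarce, a few are spliced and stable, and some are known to act on the gene beside them, while for most no function is known. Each is named after the neighboring gene, called the partner gene below. Placed by the RefSeq start sites, 105 member probe sets started head to head with the partner (back to back on opposite strands) within 1000 bases, 8 did so from farther away, 52 faced the partner's start within 1000 bases, 84 faced it from farther away, 2 lay on the same strand and 102 could not be placed.

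RNA was hybridized to 24 Affymetrix HG-U133 Plus 2.0 arrays, 3 in each of 8 groups. HEK293 is a human embryonic kidney line, and the DN-POLG cells carried a doxycycline-inducible, dominant-negative mutant of POLG, the polymerase that copies mtDNA, so that mtDNA was lost over 9 days of doxycycline, with samples taken at day 0, day 3, day 6 and day 9. AOX/NDI1 cells carried the same DN-POLG transgene and in addition expressed AOX, an alternative oxidase, and NDI1, a yeast NADH dehydrogenase, which together let NADH be oxidized without the respiratory chain, and they were sampled at day 0 and day 9. The last pair was the 143B osteosarcoma line, as rho+ cells with mtDNA and as a rho0 derivative with chronic mtDNA loss. All cells, controls included, grew in high-glucose medium with uridine and pyruvate, a medium in common use for cells without respiration. The methods describe each replicate as a separate culture round, with several flasks pooled at days 6 and 9. Each HEK293 model and the rho0 cells were a single derivative, so differences between derivatives cannot be told apart from those of the transgene or of mtDNA. The arrays of days 3, 6 and 9 also differ from day 0 in doxycycline and in time in culture. No array separates these from the loss of mtDNA, so they cannot be told apart either.

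A signal is the MAS5 value of a probe set on an array, scaled by the authors so that all arrays had the same trimmed mean. The POLG probe set 217635_s_at was higher at day 9 in DN-POLG cells (log2 difference 3.54) and in AOX/NDI1 cells (2.76), whereas 203366_at, which also reads POLG, gave 0.23 and 0.38 and was not called. The mtDNA-encoded ATP6 was lower by -2.51 and -2.22 and, in rho0 cells, by -8.76. NEFL, which HEK293 cells express, averaged 5197 to 7717 in the HEK293 groups and 7.41 and 12.6 in 143B, whereas the bone and matrix gene SPARC averaged 6598 and 10850 in 143B and at most 48.6 in HEK293. Of the other kidney and neural genes looked at, LIN28B and PAX2 were also higher in HEK293. The group means of NEFM, LHX1, EYA1 and SALL1 overlapped between the lines. SIX2 averaged at most 100.3 in HEK293 and 109.3 and 134.2 in 143B. The blood marker PTPRC (group means 4.11 to 32.1) and the endothelial marker VWF (3.67 to 29.4) were low everywhere. HBB, another blood gene, averaged 105.2 to 134.5 in the HEK293 groups, and PECAM1, another endothelial gene, 88.95 to 116. CD3E, also a blood gene, averaged 40.5 to 89.2 in the HEK293 groups. COL1A2 and THY1, which bone and stromal cells often express, were also low in 143B (at most 47.0 and 23.7). S100A4, of the same list, averaged 304.5 to 470.6 in HEK293, 89.2 in rho+ and 663 in rho0 cells. COL1A1, COL5A1, COL6A3, CD44, LOX, RUNX2, TWIST1 and TGFBI were higher in both 143B groups than in any HEK293 group. A single library stood apart: DN-POLG day 6 replicate 1 had a 3′/5′ ACTB signal ratio, a sign of RNA or labeling quality, of 8.92, against 1.05 to 1.81 on the other HEK293 arrays. In 143B this ratio was 10.4 to 17.1 in rho+ and 5.53 to 8.12 in rho0 cells. Its part in the 143B results was not tested.

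Promoters are shown for 6 members because the results below turn on them: 2 that were lower in all 3 models, 2 with the largest changes in AOX/NDI1 cells, the largest rise, and the largest fall in 143B. Each window runs from 250 bases before to 50 after the RefSeq start (GRCh38.p14), 5′ to 3′ on the transcript's strand. Capitals mark matches to the motifs searched, on either strand, here SP1 (GGGGCGG) and ETS (CCGGAAGT). The windows are chr18:74597786-74598085, minus strand for ZNF407-AS1, chr21:46228981-46229280, plus strand for MCM3AP-AS1, chr12:98516177-98516476, minus strand for TMPO-AS1, chr17:81034670-81034969, minus strand for BAIAP2-DT, chr1:15848098-15848397, minus strand for SPEN-AS1, and chr1:119140146-119140445, plus strand for WARS2-AS1.
ZNF407-AS1: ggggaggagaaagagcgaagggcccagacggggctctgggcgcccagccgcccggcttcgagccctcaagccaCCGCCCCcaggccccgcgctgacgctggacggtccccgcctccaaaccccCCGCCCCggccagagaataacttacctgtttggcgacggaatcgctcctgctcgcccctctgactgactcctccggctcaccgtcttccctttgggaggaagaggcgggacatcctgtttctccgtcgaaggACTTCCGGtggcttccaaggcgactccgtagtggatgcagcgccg
MCM3AP-AS1: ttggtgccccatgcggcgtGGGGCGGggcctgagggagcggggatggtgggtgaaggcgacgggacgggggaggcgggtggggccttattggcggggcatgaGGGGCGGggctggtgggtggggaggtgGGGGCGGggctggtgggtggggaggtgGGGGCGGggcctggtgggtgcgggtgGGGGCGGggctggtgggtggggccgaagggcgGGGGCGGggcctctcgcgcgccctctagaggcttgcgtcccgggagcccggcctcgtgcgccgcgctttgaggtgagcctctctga
TMPO-AS1: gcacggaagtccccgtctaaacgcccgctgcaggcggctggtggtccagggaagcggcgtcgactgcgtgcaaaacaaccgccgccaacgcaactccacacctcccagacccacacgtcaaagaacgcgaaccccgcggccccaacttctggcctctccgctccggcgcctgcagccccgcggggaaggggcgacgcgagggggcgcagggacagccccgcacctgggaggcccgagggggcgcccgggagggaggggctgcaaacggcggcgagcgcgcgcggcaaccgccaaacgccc
BAIAP2-DT: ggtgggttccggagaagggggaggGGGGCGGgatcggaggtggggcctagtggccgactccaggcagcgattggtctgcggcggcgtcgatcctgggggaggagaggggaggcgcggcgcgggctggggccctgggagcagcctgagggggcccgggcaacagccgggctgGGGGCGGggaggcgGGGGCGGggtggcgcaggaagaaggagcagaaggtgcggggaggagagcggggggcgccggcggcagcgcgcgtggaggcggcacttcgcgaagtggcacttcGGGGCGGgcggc
SPEN-AS1: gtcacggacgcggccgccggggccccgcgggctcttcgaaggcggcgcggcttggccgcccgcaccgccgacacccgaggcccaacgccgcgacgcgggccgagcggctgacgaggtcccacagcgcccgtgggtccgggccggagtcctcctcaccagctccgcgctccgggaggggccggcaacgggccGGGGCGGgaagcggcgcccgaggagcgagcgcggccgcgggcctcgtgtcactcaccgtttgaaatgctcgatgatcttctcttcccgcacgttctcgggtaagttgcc
WARS2-AS1: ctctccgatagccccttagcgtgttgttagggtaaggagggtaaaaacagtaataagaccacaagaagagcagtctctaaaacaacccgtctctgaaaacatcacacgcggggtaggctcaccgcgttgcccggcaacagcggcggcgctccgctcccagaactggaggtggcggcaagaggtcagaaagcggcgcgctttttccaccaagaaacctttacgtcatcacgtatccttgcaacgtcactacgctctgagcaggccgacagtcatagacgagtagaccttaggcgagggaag

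The ZNF407-AS1 window held 2 SP1 matches and 1 ETS match, close to a start that lies 35 bases from that of ZNF407. The MCM3AP-AS1 window held 6 SP1 matches and BAIAP2-DT 4. SPEN-AS1 held 1, and none of the motifs searched was in the TMPO-AS1 and WARS2-AS1 windows. The SPEN-AS1 window was the richest in CpG (49 CpG), and WARS2-AS1 the poorest of the 6 (23 CpG). Motif matches are descriptions of these letters only.

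Over the 224 member genes with a RefSeq promoter, the windows were rich in GC. Their median GC content was 65.8% with 26 CpG, against 58.3% and 14 CpG over all 27305 promoters of the same length. -DT promoters had 69.0% and 31 CpG, -AS promoters 63.3% and 24 CpG. The SP1 letters were in 42.9% of member promoters and in 30.7% of all, and the TATA box (TATAAA) in 5.8% against 12.0%. The remaining shares were 5.4% against 4.4% for ETS, 3.1% against 2.0% for the CRE (TGACGTCA), 3.6% against 3.0% for YY1 (AAGATGGC), 2.7% against 1.6% for the NRF1 core (TGCGCATGC) and 0.4% against 3.7% for the amino acid response element (TGATGNAA), the letters bound by ATF4. YY1 letters were in 5 of 55 -DT and 3 of 169 -AS promoters, and NRF1 letters in 3 of 55 and 3 of 169. Each motif was counted on its own, also where it overlapped another. Some of these promoters overlap that of the partner gene, so member and partner share letters.

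In HEK293 cells the members' mean log2 signals ran from 5.85 to 12.23 with a median of 7.19 and quartiles of 6.42 and 8.22, beside a median of 8.83 over all 23132 probe sets tested. Signals of different probe sets depend on their probes, so the levels set no order of abundance between transcripts. The probe sets with the highest mean signals belonged to EPB41L4A-AS1 (log2 level 12.23), WAC-AS1 (12.05), FAM86B2-DT (11.40), SPEN-AS1 (11.31), THAP9-AS1 (11.09) and ZNF232-AS1 (11.08). Of these, EPB41L4A-AS1 read 4274, 5402 and 3812 at DN-POLG day 0 and 7135, 6412 and 7025 at day 9, without passing the test (log2 difference 0.62 ± 0.22, adjusted p = 0.0946). WAC-AS1 stayed between 3316 and 5965 on all 18 HEK293 arrays.

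Many members differed between the cell lines. Comparing the mean of the 6 143B arrays with that of the 18 HEK293 arrays, 77 probe sets were lower in 143B by at least 2 on the log2 scale and 28 were higher by as much. RARA-AS1 ran from 226 to 1114 in HEK293, with a median of 662, and did not exceed 6.76 in 143B. UNC5B-AS1 ran from 63.9 to 1003 in HEK293 and did not exceed 3.20 in 143B. In the other direction, DSG2-AS1 ran from 36.3 to 288 in HEK293 and from 2755 to 6142 in 143B. TPT1-AS1, head to head with the tumor protein gene TPT1, read 41.9 to 393 in HEK293 and 1962 to 4299.9 in 143B (226407_at). The signals of these 4 probe sets fell into separate ranges in the 2 lines. Other probe sets of the same genes disagreed in part: the mean log2 level of DSG2-AS1 by 1556835_s_at was 6.44 in HEK293 and 6.73 in 143B, and that of TPT1-AS1 was higher in 143B by 4 of 5 probe sets and lower by 1563983_at (6.27 and 3.01). The 4 were picked as extremes after their values were seen, and the members were selected on the HEK293 level, so the excess of members lower in 143B is fixed in part by the rule. In 143B, 212 member probe sets of 170 genes passed the filter on low signals (mean log2 of at least 6.38) and 141 did not.

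Differences between groups were fitted with limma across all probe sets that passed the filter, with Benjamini-Hochberg adjustment over all of them, and are given as log2 differences ± standard error with 3 arrays a group. A probe set was called at an adjusted p under 0.05. The filter used the mean over all arrays of a cell line, so a member could pass it through the groups where it was high. Among others, FRMD6-AS1 and SDCBP2-AS1 at DN-POLG day 9, and BAIAP2-DT and LIPT2-AS1 at AOX/NDI1 day 9, lay under the filter's signal (57.2) on every array. ICA1-AS1 did so in rho0 cells (83.3). The filter thus helped to select falls among such members. In bulk RNA, fewer cells with a transcript and less of it per cell cannot be told apart. At DN-POLG day 9 against day 0, 28 of 353 member probe sets (26 genes) were called, 9 higher and 19 lower. That is 7.93% of the members, where 8.38% of all probe sets tested were called (2.31% higher and 6.07% lower). In AOX/NDI1 cells, 41 member probe sets (39 genes) were called at day 9, 3 higher and 38 lower, or 11.6% beside 11.8% of all (2.46% higher and 9.33% lower). In 143B, 22 of 212 (18 genes) were called in rho0 against rho+ cells, 0 higher and 22 lower, or 10.4% beside 7.65% of all (2.24% higher and 5.41% lower). The members' shares were thus near the background in the 2 HEK293 models. Counted by gene, 18 of 170 member genes were called in 143B, beside 1304 of all 11433 genes tested.

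The median log2 difference of the members was -0.002 at DN-POLG day 9 (0.009 over all probe sets tested), -0.20 in AOX/NDI1 (-0.04) and -0.37 in 143B (-0.05). Setting all arrays to a single median moved the median over all probe sets to 0.10 in AOX/NDI1 and 0.26 in 143B and that of the members to -0.06 and -0.07. As deposited, the members' median lay under that of all probe sets by -0.16 in AOX/NDI1 and -0.32 in 143B, and with quantile normalization by -0.07 and -0.25. With a single median the calls split as 12 higher and 14 lower at DN-POLG day 9, 4 and 26 in AOX/NDI1, and 6 and 14 in 143B. That is 7.37%, 8.5% and 9.43% of the members, beside 6.27%, 8.79% and 10.9% of all probe sets tested. Over all probe sets, the 143B calls were then 1705 higher and 768 lower. With quantile normalization the members' calls split as 15 and 16, 7 and 24, and 0 and 16. These are 8.78%, 8.78% and 7.55%, beside 7.83%, 10.5% and 7.69% of all. Counted over both directions, the higher share of members called in 143B as deposited was thus not seen under either scaling. Called lower there were 22 of 212 members as deposited, 16 with quantile normalization and 14 with a single median. Over all 22786 probe sets tested these were 1232, 1007 and 768. The share called lower stayed larger for the members each time, a difference that was not tested. The median over the members lay lower on the day 9 than on the day 0 arrays of AOX/NDI1 cells (7.03 to 7.28 against 7.38 to 7.49), and lower in rho0 than in rho+ cells (6.47 to 6.92 against 6.97 to 7.30). The median signal of whole arrays was also lower in rho0 (74.3 to 82.8) than in rho+ cells (88.3 to 110.5). In AOX/NDI1 cells it was 67.2 to 69.6 at day 0 and 59.1, 73.9 and 55 at day 9. Replicates 1 and 3 of day 9 thus lay below every day 0 array, and replicate 2 above.

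**Figure D1:**
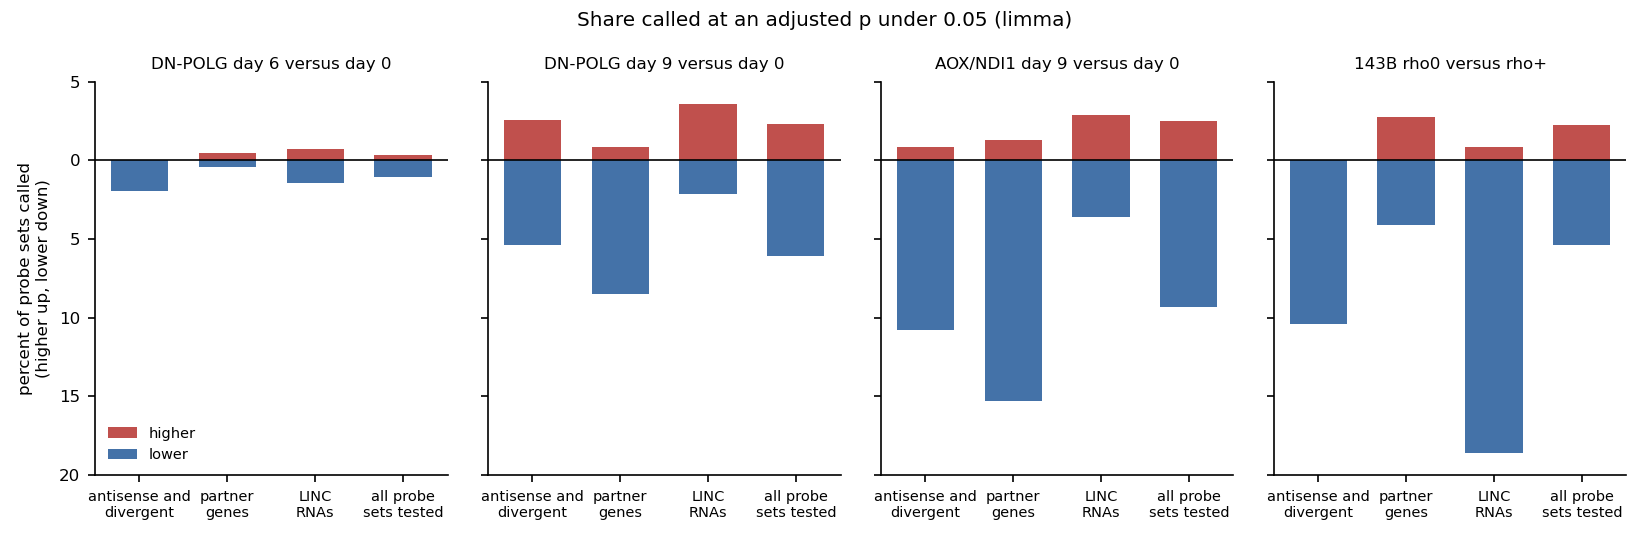
Percent of probe sets called higher (red, upward) and lower (blue, downward) at an adjusted p under 0.05, in 4 comparisons of 3 arrays against 3. The bars are the antisense and divergent RNAs, their partner genes, LINC noncoding RNAs and all probe sets tested. The antisense and divergent RNAs were called lower in 5.38%, 10.8% and 10.4% of cases at DN-POLG day 9, at AOX/NDI1 day 9 and in rho0 cells.

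LINC RNAs, noncoding RNAs named without a partner gene, served as another list. In them 8 of 139 probe sets were called at DN-POLG day 9 (5 higher, 3 lower), 9 in AOX/NDI1 (4 and 5) and 23 of 118 in rho0 cells (1 and 22). Among the partner genes, 22 of 235 were called at DN-POLG day 9 (2 higher, 20 lower), 39 in AOX/NDI1 (3 and 36) and 15 of 220 in rho0 cells (6 and 9). -DT members were called in 5 of 91 cases at DN-POLG day 9, 7 in AOX/NDI1 and 5 of 54 in 143B (5.49%, 7.69% and 9.26%), and -AS members in 23 of 262, 34, and 17 of 158 (8.78%, 13.0% and 10.8%), beside the 8.38%, 11.8% and 7.65% of all probe sets. No difference between these lists was tested.

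In 2 cases a member was lower in all 3 models, for ZNF407-AS1 and MCM3AP-AS1. ZNF407-AS1, the divergent partner of the zinc finger gene ZNF407, read 481, 344 and 1099.7 at DN-POLG day 0 and 648, 526 and 958 at day 3. It then read 138, 166 and 126 at day 6 and 130.4, 147 and 83.3 at day 9. Days 6 and 9 lay below every array of days 0 and 3. In AOX/NDI1 cells it read 537, 532 and 835 at day 0 and 134, 101 and 150.4 at day 9. The 143B arrays read 333, 589.6 and 397 in rho+ and 178, 194 and 107 in rho0 cells. The groups did not overlap in either. The log2 differences were -1.99 ± 0.37 at day 6 (adjusted p = 0.0218), -2.28 ± 0.37 at day 9 (adjusted p = 0.00142), -2.29 ± 0.37 in AOX/NDI1 (adjusted p = 0.00100) and -1.47 ± 0.33 in rho0 cells (adjusted p = 0.0364). The day 6 call held in 11 of 16 other settings and was lost, among others, with the replicate number as a block. ZNF407 itself was not called, with -0.47 and -0.51 at day 9 in the 2 HEK293 models and 0.56 in rho0 cells. The call of ZNF407-AS1 held in all 17 other settings tried in AOX/NDI1 and in 16 of 17 at DN-POLG day 9, whereas in 143B it held in 6 of 16 and was lost with quantile normalization, a single median for all arrays, no signal filter, the adjusted ANOVA of the methods, the replicate number as a block, and without rho0 replicate 1 or 2 or any of the rho+ arrays.

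MCM3AP-AS1 faces the mRNA-export gene MCM3AP from 56380 bases away. It read 492, 391 and 572 at DN-POLG day 0, 272, 271 and 242 at day 6 and 306, 255 and 274 at day 9 (probe set 220459_at). The AOX/NDI1 arrays read 473, 517 and 542 and, at day 9, 304, 366 and 276. In 143B it read 829, 668 and 628 in rho+ and 237, 238 and 435 in rho0 cells. Every depleted array lay below its controls. The log2 differences were -0.88 ± 0.19 at day 6 (adjusted p = 0.0355), -0.79 ± 0.19 at day 9 (adjusted p = 0.0147), -0.70 ± 0.19 in AOX/NDI1 (adjusted p = 0.0216) and -1.28 ± 0.31 in rho0 cells (adjusted p = 0.0440). Another probe set, 232740_at, gave -1.14, -1.38 and -0.53 in the 3 models and was not called. With the replicate number as a block, the day 6 call of MCM3AP-AS1 was lost. The MCM3AP-AS1 call held in 13 of 17 other settings at DN-POLG day 9, in 9 of 17 in AOX/NDI1 and in 7 of 16 in 143B. At DN-POLG day 9 it was lost when only the arrays compared were fitted, and without day 9 replicate 2 or 3 or day 0 replicate 3. The AOX/NDI1 call was lost with quantile normalization, a single median, no signal filter and the replicate block (adjusted p = 0.0573), and without day 9 replicate 1 or 3 or day 0 replicate 2 or 3. In 143B it was lost with a single median, no signal filter, the adjusted ANOVA and the replicate block, and without rho0 replicate 1 or 2 or any of the rho+ arrays.

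**Figure D2:**
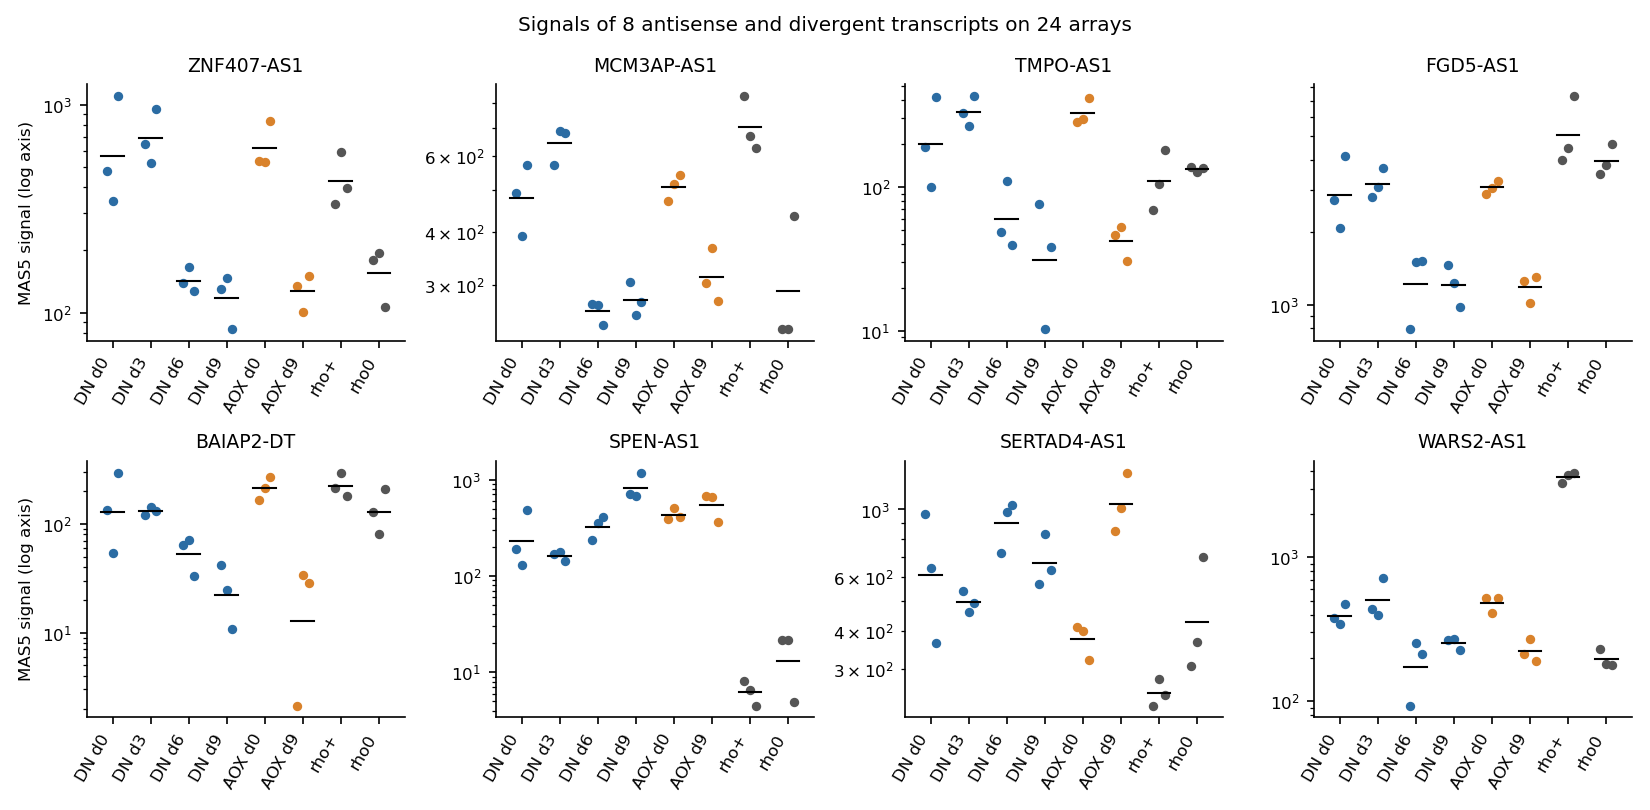
MAS5 signals (log axis, each panel with its own range) of 8 antisense and divergent RNAs on 24 arrays: DN-POLG days 0 to 9 in blue, AOX/NDI1 days 0 and 9 in orange, 143B rho+ and rho0 in gray. Points are arrays and bars the mean of the 3 log2 signals. ZNF407-AS1 fell in all 3 models, TMPO-AS1 and FGD5-AS1 in the HEK293 models, SPEN-AS1 (227664_at) rose at DN-POLG day 9, SERTAD4-AS1 rose in AOX/NDI1 cells, and WARS2-AS1 went from 3283 to 3897 in rho+ to 178 to 230.3 in rho0 cells.

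The time course asked when these RNAs change as mtDNA is lost. At day 3, no member was called, as was no probe set at all (0%), and limma's unadjusted p was under 0.05 for 17 members (4.82%, beside 2.72% of all). By day 6, 7 of 353 members were called (1.98%), 0 higher and 7 lower, where 1.37% of all probe sets were called (0.324% higher and 1.05% lower). Besides ZNF407-AS1 and MCM3AP-AS1 these were FGD5-AS1 (-1.23 ± 0.28, adjusted p = 0.0432), SLC16A1-AS1 (-1.23 ± 0.25, adjusted p = 0.0299), TENM3-AS1 (-1.17 ± 0.23, adjusted p = 0.0263), ZNF790-AS1 (-0.93 ± 0.20, adjusted p = 0.0385) and ASB16-AS1 (-0.77 ± 0.17, adjusted p = 0.0404). The replicates of days 0 and 6 were paired by culture round, and with the round as a block none of the 7 remained called. The count also moved to 2 without day 6 replicate 3, 3 without day 0 replicate 1, 22 without day 0 replicate 2 and 0 without day 0 replicate 3, and was 5 without day 6 replicate 1.

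FGD5-AS1, a long noncoding RNA with high signals in these cells, read 2736, 2081 and 4155 at day 0 and 2817, 3081 and 3683 at day 3. It read 795, 1508 and 1527 at day 6 and 1467, 1232 and 982 at day 9 (-1.25 ± 0.28, adjusted p = 0.0115). Its signals at days 6 and 9 were all under the lowest of the earlier days. AOX/NDI1 cells read 2887, 3069 and 3281 at day 0 and 1252, 1021 and 1307 at day 9 (-1.37 ± 0.28, adjusted p = 0.00467). In 143B the groups overlapped, at 3987, 4497 and 7345 in rho+ and 3505, 3807 and 4635 in rho0 cells, and the test was not passed (-0.36 ± 0.30).

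SLC16A1-AS1 lies beside SLC16A1, the lactate and pyruvate transporter MCT1. Its probe set 1568799_at read 257, 177 and 232 at DN-POLG day 0, 109, 90.7 and 83.6 at day 6 and 57.1, 70.9 and 109 at day 9. The fall at day 9 was -1.53 ± 0.25 (adjusted p = 0.00142), and 1568813_at gave -1.16 ± 0.29 (adjusted p = 0.0202). The same probe sets gave -1.21 ± 0.25 (adjusted p = 0.00474) and -1.06 ± 0.29 (adjusted p = 0.0253) in AOX/NDI1 cells. The remaining probe set, 1560579_s_at, which can match several transcripts, gave -0.02 and -0.27 and was not called. TENM3-AS1 was low at day 6 and not at day 9: 232446_at read 110.4, 163 and 154 at day 0, 47.9, 71.5 and 70.8 at day 6 and 119, 117 and 99.8 at day 9, where it was not called (-0.33 ± 0.23). Its other probe set, 243688_at, gave -0.17 at day 6 and was called in AOX/NDI1 cells at day 9 (-1.12 ± 0.20, adjusted p = 0.00229).

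At day 9 the largest changes in DN-POLG cells were falls. TMPO-AS1, which faces the gene of the nuclear lamina protein TMPO, read 189, 99.6 and 419.8 at day 0 and 76.4, 10.3 and 38.0 at day 9 (-2.68 ± 0.61, adjusted p = 0.0121). The AOX/NDI1 arrays read 282, 297 and 415 at day 0 and 46.2, 52.6 and 30.6 at day 9 (-2.96 ± 0.61, adjusted p = 0.00489). TMPO-AS1 was thus low on every day 9 array of both models, with TMPO itself at 0.46 and 0.58 and not called. In 143B it read 69.0, 105 and 179.97 in rho+ and 137, 128 and 135 in rho0 cells, with no call. In DN-POLG cells the value was -3.33 without day 9 replicate 1 and -1.89, and not called, without day 9 replicate 2, and the call was also lost without day 0 replicate 3. With 32 added to every signal before the log, it was -1.78 and, in AOX/NDI1, -2.27.

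CKMT2-AS1, named after the mitochondrial creatine kinase CKMT2, read 348, 248 and 250.2 at DN-POLG day 0, 136, 114 and 167 at day 6 and 43.9, 91.8 and 35.6 at day 9 (-2.41 ± 0.38, adjusted p = 0.00115). The signals of day 6 lay between those of days 0 and 9 without overlap. This call held in all 17 other settings. AOX/NDI1 cells went from 407, 381 and 335 to 76.1, 138 and 198 (-1.55 ± 0.38, adjusted p = 0.0138). Neither HEK293 model showed a call for CKMT2, and CKMT2-AS1 was not called in 143B (-0.28 ± 0.26).

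SDCBP2-AS1 read 170.2, 62.4 and 173 at DN-POLG day 0 and 8.27, 28.9 and 54.7 at day 9 (-2.38 ± 0.55, adjusted p = 0.0124), and 259, 227 and 182 in rho+ against 70.2, 74.3 and 52.4 in rho0 cells (-1.77 ± 0.26, adjusted p = 0.0107). Its groups did not overlap in either model. It was -1.62 without day 9 replicate 1 and -2.99 without day 9 replicate 3, and its call was lost without day 0 replicate 1. FRMD6-AS1 read 118, 76.8 and 86.0 at day 0 and 33.0, 43.6 and 9.02 at day 9 (-1.97 ± 0.53, adjusted p = 0.0307). The FRMD6-AS1 value was -1.28, not called, without day 9 replicate 3, and the call was also lost without day 0 replicate 1 or 3. RAB30-DT, divergent from the small GTPase gene RAB30, read 189, 137 and 183 at day 0 and 79.6, 35.9 and 37.7 at day 9 (-1.82 ± 0.37, adjusted p = 0.00578), and 203, 236 and 201 against 66.6, 101 and 31.1 in AOX/NDI1 cells (-1.84 ± 0.37, adjusted p = 0.00391). The other RAB30-DT probe set, 228612_at, gave 0.12 and 0.22 and was not called, so the probe sets of this gene disagreed.

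SLC38A2-AS1 starts 10 bases from SLC38A2, which encodes an amino acid transporter. SLC38A2-AS1 read 75.2, 147 and 94.2 at DN-POLG day 0 and 11.4, 66.8 and 19.9 at day 9 (-2.03 ± 0.55, adjusted p = 0.0312). The SLC38A2 probe sets fell too, by -1.36, -1.34 and -1.25, all 3 called. In AOX/NDI1 cells SLC38A2-AS1 read 79.4, 50.01 and 57.1 at day 0 and 56.0, 89.0 and 58.1 at day 9 (0.12 ± 0.55), although SLC38A2 again fell (-1.72). The SLC38A2-AS1 value was -2.75 without day 9 replicate 2, and the call was lost without day 9 replicate 1 or 3 or day 0 replicate 2 or 3, and also with quantile normalization.

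Of the 9 members higher at DN-POLG day 9, SPEN-AS1, which faces the gene of the transcriptional repressor SPEN, changed most. Probe set 227664_at read 191, 130.2 and 478 at day 0, 237, 353 and 405 at day 6 and 704, 668 and 1179.5 at day 9 (1.85 ± 0.39, adjusted p = 0.00842). Probe set 227593_at read 2010.1, 1168 and 2501 at day 0 and 3974, 3819 and 5198 at day 9 (1.25 ± 0.27, adjusted p = 0.00978). Both SPEN-AS1 probe sets lost the call without day 9 replicate 3, and 227596_at missed the threshold (adjusted p = 0.0639). In AOX/NDI1 cells the same 3 gave 0.34, 0.46 and -0.16, none called. The other rises were ICA1-AS1 (1.29 ± 0.34), NUP50-DT (1.26 ± 0.32), EFCAB2-AS1 (1.22 ± 0.30), TOLLIP-DT (1.19 ± 0.32), MELTF-AS1 (1.12 ± 0.29), ASH1L-AS1 (0.73 ± 0.21) and FOXD3-AS1 (0.73 ± 0.20). For EFCAB2-AS1 and MELTF-AS1 the other probe set gave -0.07 and 0.44 and was not called. All 28 called members had day 9 arrays that did not overlap with day 0, which with 3 arrays against 3 follows largely from the call itself. The count was 18 without day 9 replicate 2 and 9 without day 9 replicate 3. It was 22 with the replicate number as a block and 2 when only the 6 arrays compared were fitted. With the day 6 library of high 3′/5′ ratio left out of the fit it was 44 (14 higher and 30 lower). This last alternative was chosen after the data were seen.

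The AOX/NDI1 cells asked which responses to the same transgene remain when NADH can be oxidized by other enzymes. BAIAP2-DT, divergent from the membrane-curvature gene BAIAP2, read 167, 215 and 271 at day 0 and 2.13, 33.7 and 28.4 at day 9 (-4.07 ± 0.83, adjusted p = 0.00452). All day 9 arrays were far below day 0. The size rested on signals near the floor of the array: it was -2.78 without day 9 replicate 1, -4.78 without day 9 replicate 2 and -2.26 with 32 added to every signal. DN-POLG cells read 133.2, 53.6 and 296 at day 0 and 41.9, 24.4 and 10.8 at day 9 (-2.52 ± 0.83, not called). Another probe set, 1558147_a_at, read 100.4, 206 and 194 at AOX/NDI1 day 0 and 204, 182 and 240.5 at day 9 (0.38 ± 0.62), so BAIAP2-DT was lower by 1 probe set only.

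LIPT2-AS1, opposite the lipoic acid synthesis gene LIPT2, read 105, 139.9 and 181 at AOX/NDI1 day 0 and 30.1, 56.7 and 6.11 at day 9 (-2.66 ± 0.65, adjusted p = 0.0140). It was -1.75, not called, without day 9 replicate 3, -3.35 without day 9 replicate 2, and not called without day 0 replicate 3. PRKAG2-AS1, beside a subunit gene of the energy sensor AMPK, read 267, 245 and 356 and, at day 9, 36.5, 67.1 and 42.7 (-2.60 ± 0.75, adjusted p = 0.0334), and its other probe set gave -1.47 without being called. The PRKAG2-AS1 call was lost without any of the 6 arrays and with quantile normalization. At DN-POLG day 0 PRKAG2-AS1 ranged from 23.4 to 518.

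NFYC-AS1, named after a subunit gene of the factor NF-Y, read 155, 165 and 185 at AOX/NDI1 day 0 and 5.58, 70.9 and 84.0 at day 9 (-2.38 ± 0.68, adjusted p = 0.0308). It was -1.12 without day 9 replicate 1 and -3.08 without day 9 replicate 3, and the call was lost without any of the day 0 arrays. GATA2-AS1, named after the transcription factor gene GATA2, read 165, 114 and 144 at day 0 and 43.4, 72.6 and 10.2 at day 9 (-2.13 ± 0.58, adjusted p = 0.0242). It was -1.31, not called, without day 9 replicate 3, -2.73 without day 9 replicate 2, and not called without any of the day 0 arrays. In DN-POLG cells NFYC-AS1 and GATA2-AS1 gave -1.55 and -0.99 without being called.

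PAXIP1-AS2 had a firmer fall. It read 143, 159.7 and 154 at AOX/NDI1 day 0 and 20.2, 31.4 and 45.7 at day 9 (-2.31 ± 0.33, adjusted p = 0.000483), called in all 15 other settings. The partner PAXIP1, part of a histone methyltransferase complex, fell by -0.93 (adjusted p = 0.00929). In DN-POLG cells PAXIP1-AS2 gave -0.78 ± 0.33 (not called), although PAXIP1 fell there as well (-1.09).

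Among the 3 rises in AOX/NDI1 cells, SERTAD4-AS1 led. It read 413, 399 and 321 at day 0 and 852, 1013 and 1321 at day 9 (1.48 ± 0.30, adjusted p = 0.00407), held in all 17 other settings, and stood beside falls of all 3 SERTAD4 probe sets (-1.05, -1.42 and -1.47, each called). In DN-POLG cells SERTAD4-AS1 read 965, 643 and 365 at day 0 and 569.6, 833 and 632 at day 9, with groups that overlapped (0.13 ± 0.30). RUNDC3A-AS1 read 65.8, 48.8 and 65.7 at AOX/NDI1 day 0 and 129, 165 and 127 at day 9 (1.23 ± 0.31, adjusted p = 0.0156), and lost its call without day 9 replicate 2 or day 0 replicate 2. ASH1L-AS1, beside a histone methyltransferase gene, read 623, 713 and 638 at day 0 and 1029, 996 and 1179 at day 9 (0.70 ± 0.21, adjusted p = 0.0373), a call lost without any of the 6 arrays, without the signal filter and with the replicate block (adjusted p = 0.0873). WARS2-AS1, described below in 143B, was lower in AOX/NDI1 cells as well (518, 407 and 525 against 214, 269 and 190.3; -1.11 ± 0.32, adjusted p = 0.0332), a call kept in 7 of 17 other settings and lost, among others, with quantile normalization, a single median and the replicate block (adjusted p = 0.0525), and without day 9 replicate 1 or 3 or any day 0 array. In DN-POLG cells WARS2-AS1 read 342 to 471 at day 0 and 227 to 272 at day 9, lower without overlap but not called. Of the 41 called members, 40 had groups that did not overlap (those of TPT1-AS1 overlapped), which again follows largely from the call itself. The count was 22 without day 9 replicate 3, 22, 21 and 20 without day 0 replicate 1, 2 and 3, and 111 when only the 6 AOX/NDI1 arrays were fitted.

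The day 9 comparisons of the 2 HEK293 models share no arrays but come from a single fit with a common estimate of spread. Called in both were 13 member probe sets, 46.4% of the 28 in DN-POLG and 31.7% of the 41 in AOX/NDI1 cells, and all 13 had the same direction. Over all probe sets tested, 1331 were called in both, 68.6% of the 1939 in DN-POLG and 48.8% of the 2728 in AOX/NDI1 cells, so the members' shares were no higher than those of all. ASH1L-AS1 was higher in both. Lower in both were CKMT2-AS1, FGD5-AS1, MCM3AP-AS1, RAB30-DT, SLC16A1-AS1 (2 probe sets), TMPO-AS1, ZNF407-AS1, THUMPD3-AS1 (-1.49 and -2.09), PSMA3-AS1 (-1.72 and -1.60) and PSMD6-AS2 (-1.37 and -1.09), the latter pair beside proteasome subunit genes, and EIF3J-DT (-0.61 and -0.59), beside a translation initiation factor gene. The partners PSMA3 and PSMD6 were not called (0.11 and -0.09 in DN-POLG, 0.09 and 0.15 in AOX/NDI1).

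**Figure D3:**
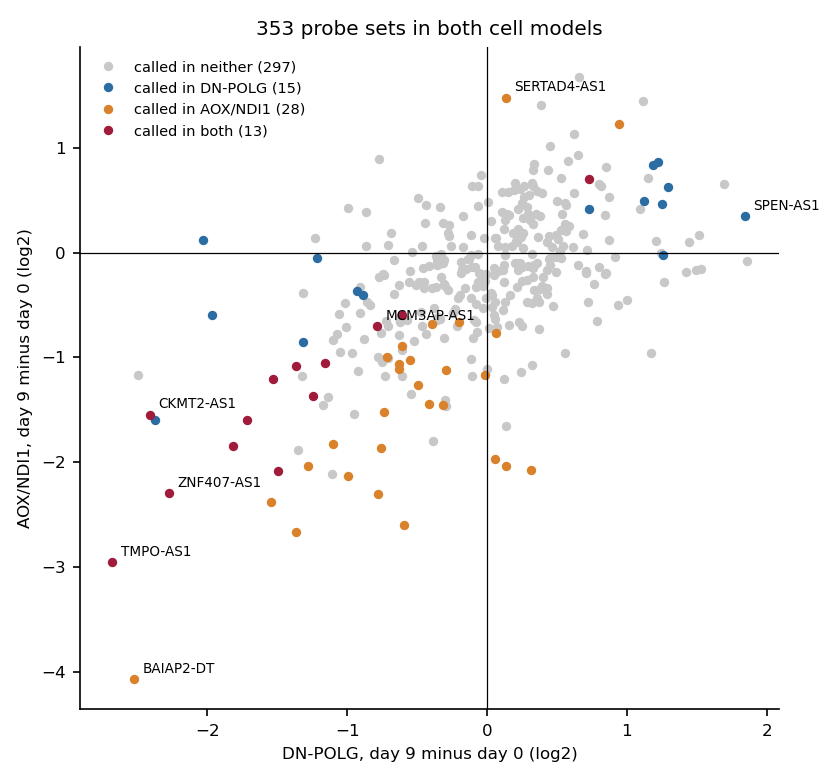
Log2 difference of day 9 minus day 0 for the 353 member probe sets in DN-POLG (horizontal) and AOX/NDI1 (vertical) cells, each point 1 probe set, colored by where it was called. The 13 called in both lie in the lower left, except for ASH1L-AS1 in the upper right, and SPEN-AS1 and SERTAD4-AS1 are the called rises farthest from zero in DN-POLG and in AOX/NDI1 cells.

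Whether the models differed was tested on the difference of their day 9 responses. No member and no probe set at all (0%) passed that test, and limma's unadjusted p was under 0.05 for 27 members (7.65%, beside 3.39% of all). For SERTAD4-AS1 the difference was 1.34 ± 0.42, for SLC38A2-AS1 2.15 ± 0.78, and for PAXIP1-AS2 -1.53 ± 0.47 (adjusted p = 0.999 for each). Before doxycycline, no member was called between AOX/NDI1 and DN-POLG cells either, where 0.00432% of all probe sets were called. An unadjusted limma p under 0.05 was found for 37 members (10.5%) and for 4.86% of all.

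In 143B, all 22 called members were lower in rho0 cells. WARS2-AS1, which faces WARS2, the mitochondrial tryptophanyl-tRNA synthetase gene, read 3283, 3737 and 3897 in rho+ and 230.3, 181 and 178 in rho0 cells (-4.22 ± 0.24, adjusted p = 0.000211). In rho0 cells it lay below the day 0 level of HEK293 cells (342 to 471 in DN-POLG and 407 to 525 in AOX/NDI1), and in rho+ cells far above it. The call held in all 16 other settings, and the value kept between -4.34 and -3.91.

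GABPB1-AS1 was lower by 4 of its 5 probe sets. It is antisense to GABPB1, a subunit of the factor GABP (nuclear respiratory factor 2), which drives nuclear genes of the respiratory chain. Probe set 231979_at read 466, 646 and 559.6 in rho+ and 41.1, 15.9 and 160.0 in rho0 cells (-3.55 ± 0.71, adjusted p = 0.0256). The brightest, 235274_at, read 3582, 5744 and 4479.7 and then 521, 559 and 2182 (-2.39 ± 0.53, adjusted p = 0.0349). Probe sets 1568983_a_at (-2.71 ± 0.57, adjusted p = 0.0297) and 235172_at (-2.21 ± 0.54, adjusted p = 0.0459) were also called, and 227406_at was not (-1.12 ± 0.37). On these 4, replicate 3 was the highest of the rho0 arrays, and on 227406_at it was the lowest. Leaving it out gave -4.43 for 231979_at, -3.07 for 235274_at, -3.40 for 1568983_a_at and -2.88 for 235172_at. All 4 calls were lost without rho0 replicate 1 or any rho+ array, and all but that of 231979_at without rho0 replicate 2. GABPB1 was not called (0.37). In DN-POLG cells 235274_at was lower at day 9 (-0.93 ± 0.28, adjusted p = 0.0485) and in AOX/NDI1 cells it was not called (-0.37 ± 0.28).

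DICER1-AS1, head to head with the microRNA-processing gene DICER1, read 1136, 1112 and 449.8 in rho+ and 80.3, 97.2 and 208 in rho0 cells (-2.82 ± 0.47, adjusted p = 0.0157), with DICER1 at -0.78 and not called. ICA1-AS1 read 183, 213 and 174 in rho+ and 41.6, 15.2 and 79.9 in rho0 cells (-2.36 ± 0.53, adjusted p = 0.0365), while in DN-POLG cells it had risen from 169, 175 and 73.0 to 232, 318 and 430.2. Without rho0 replicate 2 the ICA1-AS1 value was -1.72 and not called. CARD8-AS1 read 950.4, 955 and 744 in rho+ and 222, 336 and 173 in rho0 cells (-1.90 ± 0.30, adjusted p = 0.0129). Leaving out rho0 replicate 1 or 2 ended the calls of DICER1-AS1 and ICA1-AS1, leaving out rho+ replicate 1 or 2 those of DICER1-AS1, ICA1-AS1 and CARD8-AS1, and leaving out rho+ replicate 3 that of ICA1-AS1. The other falls lay between -1.77 and -1.19, among them 2 probe sets of GARS1-DT (-1.74 and -1.19), divergent from the glycyl-tRNA synthetase gene GARS1, which was not called (0.16).

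The 143B arrays were fitted apart from those of HEK293. Called both at DN-POLG day 9 (7 of 28) and in rho0 cells (7 of 22) were 7 member probe sets, of which 5 had the same direction. Over all probe sets tested, 159 were called in both (8.20% of 1939 and 9.12% of 1743), 122 in the same direction. ZNF407-AS1, MCM3AP-AS1, SDCBP2-AS1, GABPB1-AS1 and PCGF3-AS1 were lower in both. ICA1-AS1 and NUP50-DT were higher at DN-POLG day 9 and lower in rho0 cells. AOX/NDI1 day 9 and rho0 cells shared 3 (7.3% of 41 and 13.6% of 22), ZNF407-AS1, MCM3AP-AS1 and WARS2-AS1, all lower, beside 232 over all probe sets (8.50% of 2728 and 13.3% of 1743). The 143B count rested on few arrays: it was 5 without rho0 replicate 1, 5 without rho0 replicate 2, 62 without rho0 replicate 3, and 3, 1 and 6 without rho+ replicate 1, 2 and 3. It was 3 without the filter on low signals and 41 when the HEK293 arrays shared the estimate of spread.

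Few partners of called members were called, as was true of the partner genes in general. Of the 28 called at DN-POLG day 9, 22 had a partner that was tested, and 3 of these partners were called by their brightest probe set, where 9.36% of all partner genes were called: SLC38A2 in the same direction, NUP50 in the opposite one, and PCGF3, whose probe sets disagreed. Of those called in AOX/NDI1 cells, 2 of 32 partners were called, 1 in each direction, where 16.6% of all partner genes were called. In rho0 cells 3 of 20 were called, all in the same direction, where 6.82% of all partner genes were called. The 22, 32 and 20 count called member probe sets, so some partners stand in them more than once. These were SPEN (2) at DN-POLG day 9, THUMPD3 (2) in AOX/NDI1, and GABPB1 (4) and GARS1 (2) in rho0 cells. The shares over all partner genes count each gene a single time, so the 2 kinds of share are not of the same unit. Over all pairs of member and partner, the correlation of the log2 differences was -0.06 at DN-POLG day 9 and -0.08 in AOX/NDI1 cells (292 pairs) and 0.31 in rho0 cells (169 pairs). Where the starts lay within 1000 bases it was 0.04, -0.00 (142 pairs) and 0.46 (80 pairs), while member and partner had the same sign in 56.3%, 47.2% and 43.8% of those pairs. The points share arrays, and members with several probe sets share a partner value. The 80 pairs in rho0 cells include WARS2-AS1 with WARS2, at -4.22 and -3.50, and the correlation without this pair was not computed.

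**Figure D4:**
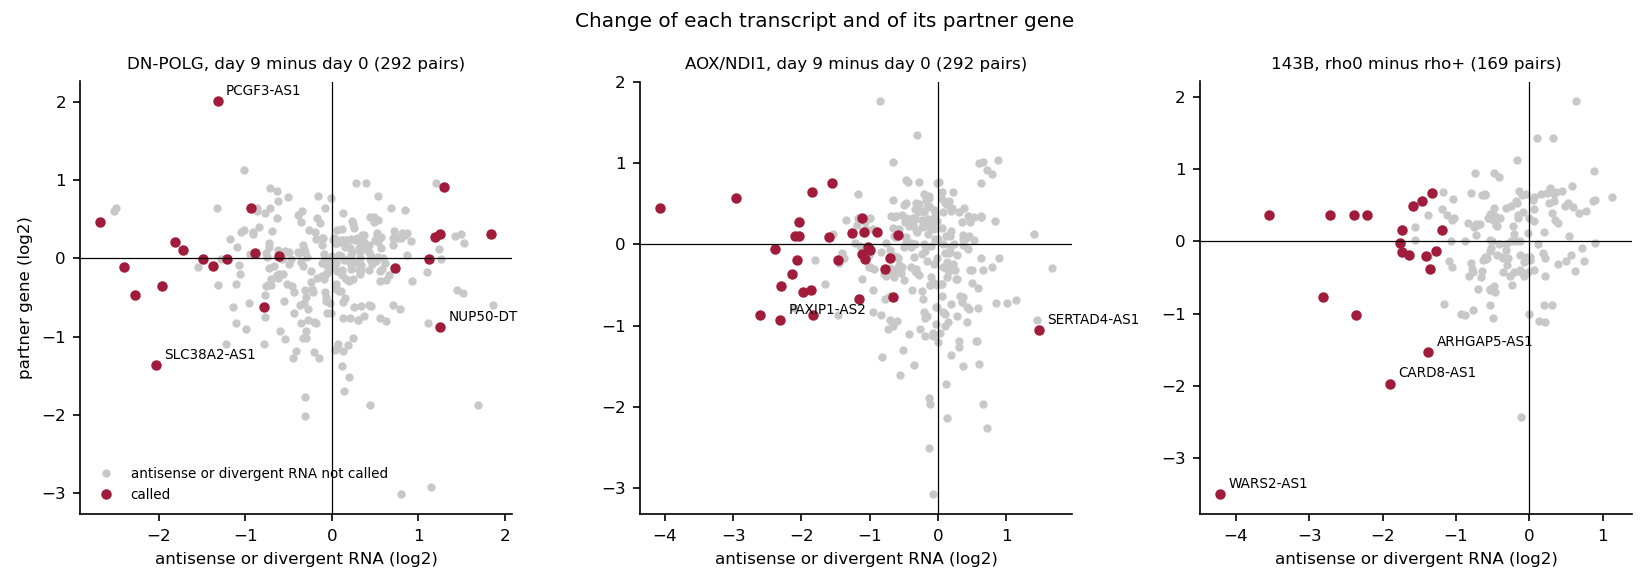
Log2 difference of each antisense or divergent RNA (horizontal) and of its partner gene (vertical), in 3 comparisons of 3 arrays against 3. Points are pairs, red where the RNA was called, with names where the partner was called too. Red points lie along the horizontal zero line in the HEK293 models, and WARS2-AS1 with WARS2 lies at -4.22 and -3.50 in 143B.

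Pairs that moved together were SLC38A2-AS1 with SLC38A2 and PAXIP1-AS2 with PAXIP1, above, and in 143B WARS2-AS1 with WARS2, CARD8-AS1 with CARD8 and ARHGAP5-AS1 with ARHGAP5. WARS2 fell by 2 of its 2 probe sets (-3.50 and -2.80, adjusted p = 0.00554 and 0.00784). CARD8, an inflammasome sensor gene, fell by -1.97 and -1.60, with the remaining probe set at -1.26 and not called. ARHGAP5 fell by -1.53, -1.44 and -1.63, with the remaining one at -2.05 and not called, beside ARHGAP5-AS1 (299.7, 338 and 179 against 112, 83.8 and 110.3; -1.38 ± 0.30, adjusted p = 0.0342). In each of these 3 pairs in 143B, starts lay within 1000 bases of each other.

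Pairs that moved apart were SERTAD4-AS1 with SERTAD4 in AOX/NDI1 cells, and NUP50-DT with NUP50 at DN-POLG day 9. NUP50-DT read 79.5, 31.2 and 64.5 at day 0 and 141, 96.0 and 161 at day 9 (1.26 ± 0.32, adjusted p = 0.0232). Of 5 NUP50 probe sets, the brightest was lower (-0.87, adjusted p = 0.0175) and the other 4, from -0.50 to 0.44, were not called. In a further pair PCGF3-AS1 read 85.3, 72.7 and 131 at day 0 and 31.6, 59.3 and 27.9 at day 9 (-1.32 ± 0.34, adjusted p = 0.0224). The PCGF3 probe sets, which read a Polycomb gene, disagreed: 238084_at was higher (2.01, adjusted p = 0.0201), 212753_at lower (-1.68, adjusted p = 0.000347), and the other 2 (-0.90 and -0.11) were not called, so no direction is given for PCGF3. The NUP50-DT call was lost without day 9 replicate 1 or 3 or day 0 replicate 2, and that of PCGF3-AS1 without day 9 replicate 1 or 3 or day 0 replicate 3.

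The fall of WARS2-AS1 was shared by genes around it on chromosome 1. Of the 10 nearest tested genes 6 were lower in rho0 cells, where the nearest genes of the other called 143B members held at most 3 that were lower. This stretch was looked at after its values were seen. LINC00622 read 4057, 3037 and 3753 in rho+ and 249.7, 332 and 288 in rho0 cells (-3.64 ± 0.24). WARS2 gave -3.50, the T-box factor gene TBX15 -2.75, ZNF697 -2.66 and PHGDH, the first enzyme of serine synthesis, -2.26. Farther out on the TBX15 side, SPAG17 (-0.26) and WDR3 (-0.39) were not called, GDAP2 (-1.96), MAN1A2 (-1.64) and TRIM45 (-2.66) were lower, and TENT5C, between GDAP2 and MAN1A2, was not called (adjusted p = 0.234). On the PHGDH side, NOTCH2 (-0.27), SEC22B (-0.19), NBPF8 (-0.03), LINC00623 (-1.03) and SRGAP2C (-0.99) were not called. In HEK293 cells, WARS2 was not called at day 9 (0.52 and 0.32).

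**Figure D5:**
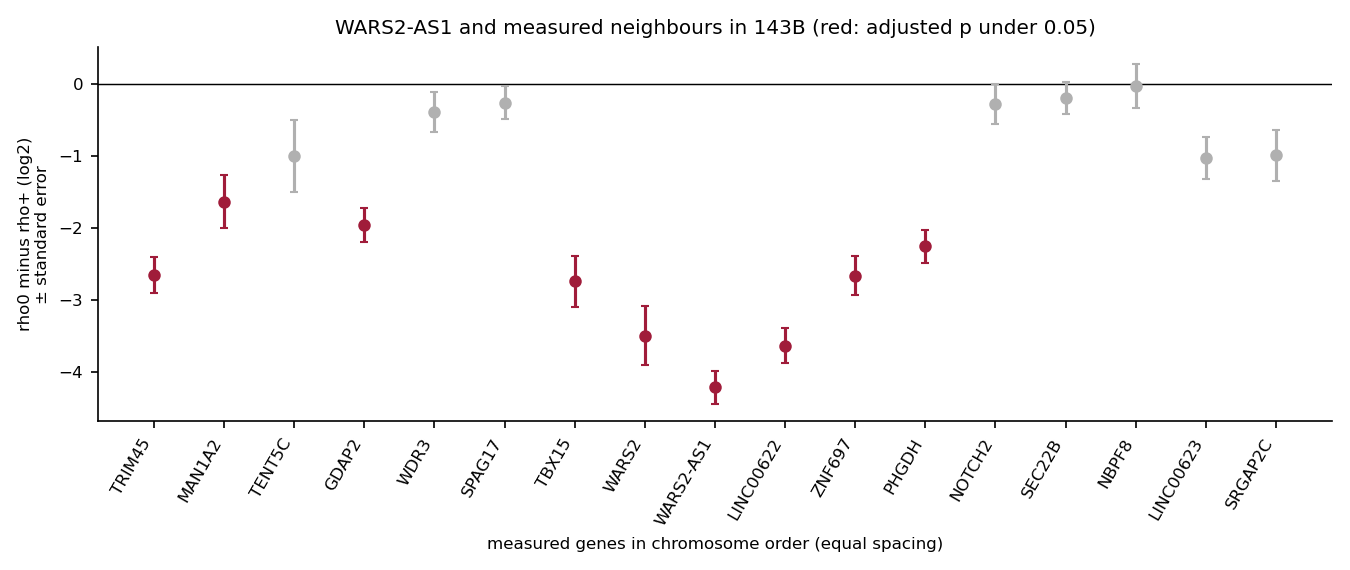
Log2 difference of rho0 minus rho+ in 143B (points, 1 probe set a gene, 3 arrays against 3; bars, standard error) for WARS2-AS1 and its measured neighbors in chromosome order, spaced evenly. Red marks an adjusted p under 0.05: TBX15, WARS2, WARS2-AS1, LINC00622, ZNF697 and PHGDH form an unbroken run of lower genes from -4.22 to -2.26.

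In 54 genes, several probe sets read the same member. Of these, 10 had a call at DN-POLG day 9, 14 in AOX/NDI1 cells and 4 in rho0 cells, and all tested probe sets were called in 0, 0 and 1 of them. The probe sets of a gene had a single sign in 8 of the 10, 12 of the 14 and 4 of the 4, and no gene was called in both directions. RAB30-DT and BAIAP2-DT, above, were split cases in which 1 probe set changed and the other did not. In all, 286 member probe sets were of the kind designed for a single transcript and 67 could match several. By position, members facing the partner from farther than 1000 bases were called in 11 of 84 cases at DN-POLG day 9, 12 in AOX/NDI1 and 8 of 56 in 143B (13.1%, 14.3% and 14.3%), and those head to head within 1000 bases in 8 of 105, 11, and 7 of 60 (7.62%, 10.5% and 11.7%), beside 8.38%, 11.8% and 7.65% of all probe sets. In 143B, 4 of the 8 calls were probe sets of GABPB1-AS1, whose start lies 1024 bases from that of GABPB1. Counted by gene, 5 of 45 facing from farther away and 7 of 47 head to head were called there, beside 1304 of all 11433 genes. Whether the positions differed was not tested.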

How the data were processed

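RNA of 24 samples in 8 groups of 3 was measured on 1-colour arrays. Per the labels and the methods, the authors amplified total RNA with a 3′ IVT kit, scanned the arrays and computed MAS5 signals in Expression Console; the deposited intensities are these linear values, with a trimmed mean of 499.9 on every array after leaving out 2% at each end, and with no further normalization between arrays. Detection calls were not used here. The number of arrays limits the precision.

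Signals were taken to log2 with nothing added, which enlarges differences of low signals. Probe sets were named from the platform annotation (41097 with a single symbol, 1801 with several, 11777 with none, 62 controls), and 352 of 353 member IDs matched RefSeq. A probe set was tested if it had 1 symbol and if its log2 signal, averaged over the arrays of a cell line, reached the median of all probe sets (5.84 in HEK293, a signal of 57.2; 6.38 in 143B, a signal of 83.3), which left 23132 and 22786. In limma 3.58.1 (R 4.3.3), 6 group means were fitted to the 18 HEK293 arrays and 2 to the 6 arrays of 143B, with moderated tests and Benjamini-Hochberg adjustment over all probe sets tested. A call was an adjusted p under 0.05. The scripts were tested on simulated data. Python 3.11.15 was used for the rest.

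Members and lists were chosen with earlier results of these data known. By rule, the text names the up to 8 called members with the largest absolute log2 difference in the day 9, day 0 and 143B comparisons and up to 4 in the others, the 6 brightest members, those nearest the level limit, genes with several member probe sets (here as counts, with the cases that matter) and the partner genes, each by its brightest probe set. Further members, among them those called in all 3 models or together with the partner, were named after their values were seen. The alternatives were quantile normalization, a single median for all arrays, 32 added to each signal, no filter and a stricter one, leaving out probe sets that can match several transcripts, fitting only the groups compared, the methods' ANOVA (an unmoderated linear model), the replicate number as a block, and leaving out each array.

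Replicates are separate culture rounds per the methods. Deviations from the group means correlated between same-numbered arrays for DN-POLG day 0 with day 3 (0.32 to 0.51) and with day 6 (0.17 to 0.21), so those arrays were taken as paired. The methods describe rounds that run to day 9 in both HEK293 models, but the same check gave -0.32 to 0.07 at day 9, so the numbers did not show the rounds there. Not every named call was repeated singly under the alternatives. Among those that were, the block is given beside each day 9 call that it ended. In 143B the numbers only name the samples (-0.18 to 0.07).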

Additional observations from a re-analysis of the deposited data

How the results depend on the processing

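In the 4 comparisons with called members, 32 of 66 counts under the alternatives stayed within 1.5 times the count reported. In the other comparisons 51 of 54 counts were 0, as was the count reported. Of 641 repeated tests of named members, 445 kept the call, 196 lost it and 0 changed sign. The call held under every alternative for CKMT2-AS1 at DN-POLG day 9, for BAIAP2-DT, TMPO-AS1, PAXIP1-AS2, ZNF407-AS1 and SERTAD4-AS1 in AOX/NDI1 cells and for WARS2-AS1 in 143B. The causes of the other losses were not tested.

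At DN-POLG day 6, where 7 members were called, quantile normalization gave 3, a single median 1, no filter 0, fitting only the arrays compared 0 and the methods' ANOVA at an unadjusted p 64. At DN-POLG day 9, with 28 called, no filter gave 12, only the arrays compared 2 and the unadjusted ANOVA 80. In AOX/NDI1 cells, with 41 called, these gave 22, 111 and 92. In 143B, with 22 called, no filter gave 3, a single model with the HEK293 arrays 41, the unadjusted ANOVA 42 and the adjusted ANOVA 1. The unadjusted ANOVA called 15 members at day 3, 29 between the models at day 0 and 22 for the difference of day 9 responses, where limma called 0.

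Leaving out an array gave 0 to 22 called members at day 6, 9 to 44 at DN-POLG day 9, 20 to 47 in AOX/NDI1 cells and 1 to 62 in 143B. The highest values for the HEK293 models at day 9 came without DN-POLG day 6 replicate 1, chosen after the data were seen. Without it the counts were 44 and 47.

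With the culture round as a block, the paired day 6 comparison called 0 members, DN-POLG day 9 22 and AOX/NDI1 day 9 40. Only some of the named calls were repeated singly under the alternatives. Among these, at day 9, the block ended the AOX/NDI1 calls of MCM3AP-AS1, ASH1L-AS1 and WARS2-AS1 and no other. The DN-POLG day 9 count went from 28 to 22, so the block ended calls there among members not repeated singly. Which of them, named members included, lost the call is not given. In 143B, whose replicates share only a number, the block gave 6. The number of arrays and the floor of the array limit what can be shown for low signals.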
